A study of Homo sapiens with 4 samples.

Results

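The tubulin and stathmin genes described here are 10 genes chosen by symbol, TUBA1A, TUBA1B, TUBA1C, TUBB2A, TUBB2B, TUBB3, TUBB6, STMN1, STMN2 and STMN3, out of 23228 genes counted. All 10 were present in the count files, and 9 passed the filter on low counts. Counts came from bulk RNA-seq of A673 cells, an established Ewing sarcoma line grown in DMEM with fetal bovine serum and transfected with RNAiMAX. The groups were FAT4 siRNA at 48 h, control (scramble) siRNA at 48 h, FAT4 siRNA at 24 h and control siRNA at 24 h after transfection. All 4 groups shared the line, the medium and the transfection reagent. A673 is a single line, and each group was 1 library, so the values describe these 4 libraries and not the spread between cultures. No source used here gives the siRNA sequences or how many siRNAs targeted FAT4.

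Microtubules are polymers of dimers that pair 1 alpha-tubulin with 1 beta-tubulin. Vertebrate cells build each subunit from several genes, the isotypes, whose products are nearly the same in the body of the protein and differ most in the acidic C-terminal tail, where motors, microtubule-associated proteins and modifying enzymes act. TUBB3 encodes the class III beta-tubulin, which is best known from neurons and is used as a neuronal marker, although many tumours express it. TUBA1A is the main alpha isotype of developing neurons, TUBA1B and TUBA1C are broadly expressed, TUBB2A and TUBB2B are beta isotypes prominent in brain, and TUBB6 is the class V beta isotype of many non-neuronal tissues. Stathmins bind free tubulin dimers and promote loss of microtubules; STMN1 is the widespread, phosphorylated founder of that family, and STMN2 and STMN3 are its neuronal relatives. Cells also hold tubulin mRNA in check: when free dimers are plentiful, TTC5 recognises the nascent start of a tubulin chain and its mRNA is degraded.

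The ends of the coding regions of the beta members encode the C-terminal tails. They show where TUBB3 and TUBB6 differ from each other and from TUBB2A and TUBB2B, whose ends are nearly the same. They are printed because reads from these genes can be told apart only where the sequences differ. The last 60 bases, with the stop codon in capitals, are from GENCODE 29 transcripts.
TUBB3: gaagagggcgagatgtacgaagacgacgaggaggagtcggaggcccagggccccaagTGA
TUBB2A: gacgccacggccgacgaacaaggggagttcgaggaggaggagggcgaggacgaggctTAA
TUBB2B: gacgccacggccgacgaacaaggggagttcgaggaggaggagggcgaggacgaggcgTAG
TUBB6: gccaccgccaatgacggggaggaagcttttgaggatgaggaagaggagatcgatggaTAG
Over their whole coding regions TUBA1A and TUBA1B were 97.2% identical. TUBB2A and TUBB2B shared 98.1% of coding bases. TUBB3 shared 87.7% of coding bases with TUBB2A, 87.4% with TUBB2B, 87.5% with TUBB6 and 81.7% with TUBB, the most abundant beta isotype in these cells. In the stretch that encodes the tail its identity was 54.0% with TUBB2A and 44.4% with TUBB6.

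The beginnings of the coding regions, which the autoregulation machinery reads as a nascent chain, are shown for 1 beta and 1 alpha member, with the first 4 codons in capitals.
TUBB3: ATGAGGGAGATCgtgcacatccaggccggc
TUBA1B: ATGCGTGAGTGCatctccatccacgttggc
TUBB3 and TUBB6 carried the same first 4 codons, and TUBA1A, TUBA1B and TUBA1C carried the same first 30 bases.

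Near-identical stretches limit how well reads are assigned. Of the 50-base words in each transcript, 65.5% in TUBB2A, 62.7% in TUBA1B, 52.2% in TUBB2B, 33.9% in TUBA1A and 20.0% in TUBA1C also occurred in a gene elsewhere in the annotation. TUBB3 shared 8.9%, TUBB6 and STMN3 shared 1.0% each, and STMN1 and STMN2 shared 0.0%. Of 100-base words the shares were 56.4% in TUBB2A, 37.2% in TUBA1B, 46.2% in TUBB2B, 15.7% in TUBA1A, 9.9% in TUBA1C and 5.1% in TUBB3. The values of TUBB2A, TUBB2B and the 3 TUBA1 genes are therefore uncertain, to a degree that depends on the read length, which is not stated in the labels. Those of TUBB3, TUBB6 and the stathmins rest mostly on sequence not shared with genes elsewhere. Genes overlapping a member's own locus were left out of these shares. The annotation also holds a read-through transcript that joins MC1R to TUBB3, which the share of TUBB3 therefore does not count. How reads there were assigned is not stated in the labels. MC1R, the melanocortin receptor gene upstream, had 188 counts in the FAT4 siRNA library and 332 in the control library at 48 h, and 173 counts with FAT4 siRNA and 331 counts with control siRNA at 24 h. After scaling of the libraries, the ratio of FAT4 siRNA to control siRNA was 0.728 at 48 h and 0.79 at 24 h. MC1R passed as lower (log2 fold change -0.40, adjusted p = 0.0461 in edgeR). Whether read-through reads entered the TUBB3 counts was not tested.

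Gene counts totalled 15196813 to 22625833 per library, so that 3 counts, the floor used here, corresponded to 0.134 to 0.203 CPM (counts per 1000000, after scaling of the libraries). FAT4, the targeted gene and an atypical cadherin, had 60.2 CPM with FAT4 siRNA and 149 CPM with control siRNA at 48 h, and 71.8 CPM with FAT4 siRNA and 165 CPM with control siRNA at 24 h. Both FAT4 siRNA libraries lay below both control libraries. The log2 fold change over both times was -1.25 ± 0.0978 (SE), with adjusted p = 8.65e-34 in edgeR's quasi-likelihood test. Of 11 marker genes of Ewing sarcoma lines, 10 were above the floor in every library, and CD99 was listed at 0 in all of them. The summed level of that list was 8604 and 7062 CPM with FAT4 and control siRNA at 48 h and 10011 and 7954 CPM at 24 h. This Ewing sum was mostly CAV1 and CCND1. CAV1 had 4455 and 2954 CPM with FAT4 and control siRNA at 48 h, and 5098 and 3710.2 CPM at 24 h. The list did not move together: NR0B1, NKX2-2, PRKCB and PAX7 were lower with FAT4 siRNA at both times. STEAP1, LIPI, FLI1, EWSR1, CCND1 and CAV1 were higher at both times. Blood cell markers summed to 0.348 to 0.541 CPM, with CD3E and HBB at 0 in all libraries. Of 7 epithelial markers, 2 to 4 were above the floor, with sums of 158 to 208 CPM that were mostly KRT18, and KRT5 was at 0. Of 7 neuron markers, 6 or 7 were above the floor, with sums of 176 CPM with FAT4 siRNA against 235 CPM with control siRNA at 48 h, and 176 against 206 CPM at 24 h. That sum was mostly NEFL, the light neurofilament chain, which had 161 and 219.9 CPM with FAT4 and control siRNA at 48 h and 159.8 and 189 CPM at 24 h. The part of these marker differences in the results below was not tested.

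Levels were compared between genes as CPM per kb of transcript, with no correction for the sequence that the isotypes share. TUBA1B was the highest member, with a mean of 899 CPM per kb over the 4 libraries, followed by STMN1 at 549, TUBA1A at 195, TUBB6 at 138, TUBA1C at 123, TUBB3 at 95.1, STMN3 at 56.7, TUBB2B at 38.7 and TUBB2A at 17.1. STMN2 was listed at 0 counts in all 4 libraries, which allows up to 0.203 CPM in the shallowest of them. In this order the 4-library ranges of TUBA1A and TUBB6, TUBB6 and TUBA1C, TUBA1C and TUBB3, and TUBB3 and STMN3 overlapped. Within each library, TUBA1A was nonetheless above TUBB6 and TUBB3 above STMN3 in 4 of 4 libraries, while the order of TUBB6 and TUBA1C, and of TUBA1C and TUBB3, was not the same in every library. The ranges of TUBA1B and STMN1, STMN1 and TUBA1A, STMN3 and TUBB2B, and TUBB2B and TUBB2A did not overlap. Among beta isotypes outside the 10 genes, TUBB averaged 1188 CPM per kb and TUBB2C, an older symbol of TUBB4B, averaged 455.

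**Figure D1:**
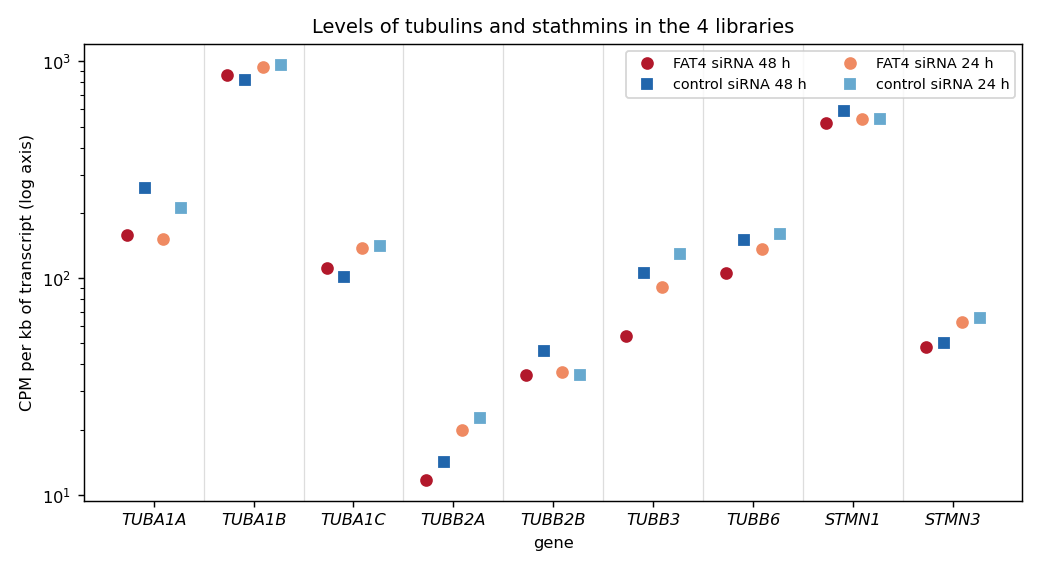
Level of each gene in each library, as CPM per kb of transcript on a log axis, with 1 point per library for FAT4 siRNA and control siRNA at 48 h and 24 h. TUBA1B and STMN1 lie above all other members, with means of 899 and 549 CPM per kb, and the FAT4 siRNA points of TUBB3 at 53.9 (48 h) and 91.2 (24 h) lie below its control points at 106 and 129.

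Whether FAT4 siRNA changed these genes was asked with the count fit over both times. The beta isotypes TUBB3 and TUBB6 and the alpha isotype TUBA1A were lower with FAT4 siRNA. In edgeR's quasi-likelihood test with Benjamini-Hochberg adjustment over all 13712 genes tested, 3 of the 9 members tested passed 0.05 as lower and 0 as higher, against 14.1% of all genes called lower and 11.9% called higher. The members were chosen with earlier results of these data known, so setting their share beside that of all genes is a description and not a test. At an unadjusted p under 0.05 the members called higher were also 0 and those lower 3, beside 5006 of all 13712 genes in either direction. DESeq2 called 3 members lower and 0 higher, beside 1234 of the 13712 genes in either direction. The members' median log2 fold change was -0.161, beside -0.0137 over all genes tested. The fit had 1 residual degree of freedom, and all genes shared 1 dispersion trend. Its p-values and SEs therefore rest on how far the siRNA difference changed between the times, pooled over genes. They say nothing of separate cultures, and an SE is not the spread of that gene between the times. In bulk RNA, fewer cells carrying a transcript and less of it per cell cannot be told apart.

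TUBB3, the neuronal beta isotype, had 1491 counts with FAT4 siRNA against 3788 with control siRNA at 48 h, and 2383 against 5089 at 24 h. As CPM these were 95.3 with FAT4 siRNA and 188 with control siRNA at 48 h, and 161 with FAT4 siRNA and 228 with control siRNA at 24 h. Both FAT4 siRNA libraries lay below both control libraries, and the 48 h FAT4 siRNA library was the lowest of the 4. The ratio of FAT4 siRNA to control siRNA was 0.506 at 48 h (95% counting interval 0.477 to 0.538) and 0.708 at 24 h (0.674 to 0.743). These exact Clopper-Pearson intervals, here and below, cover counting error only. TUBB3 fell by 0.74 ± 0.09 (SE) on the log2 scale over both times, with adjusted p = 4.36e-13 in edgeR. The ratio at 48 h divided by the ratio at 24 h was 0.716 (0.662 to 0.774), so the gap between the siRNAs was wider at 48 h by more than counting error.

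TUBB6, the class V beta isotype, had 218 CPM with FAT4 siRNA and 310.1 CPM with control siRNA at 48 h, and 281 CPM with FAT4 siRNA and 329 CPM with control siRNA at 24 h. Both FAT4 siRNA values lay below both control values. The ratio was 0.703 at 48 h (0.674 to 0.733) and 0.855 at 24 h (0.823 to 0.888), and TUBB6 fell by 0.37 ± 0.09 (SE) on the log2 scale, with adjusted p = 0.000506 in edgeR. TUBB2A had 18.7 CPM with FAT4 siRNA and 22.5 CPM with control siRNA at 48 h, and 31.9 CPM with FAT4 siRNA and 36.0 CPM with control siRNA at 24 h. Its libraries separated by time rather than by siRNA, and the siRNA comparison did not pass (log2 fold change -0.22 ± 0.13 SE, adjusted p = 0.214 in edgeR). TUBB2B, its near copy, had 72.3 CPM with FAT4 siRNA and 93.6 CPM with control siRNA at 48 h, and 74.6 CPM with FAT4 siRNA and 71.9 CPM with control siRNA at 24 h. The control library at 48 h stood above the other 3, and the comparison over both times did not pass (log2 fold change -0.16 ± 0.10 SE, adjusted p = 0.238 in edgeR).

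Among the alpha isotypes, TUBA1A, the isotype of developing neurons, had 302 CPM with FAT4 siRNA and 497 CPM with control siRNA at 48 h, and 288 CPM with FAT4 siRNA and 404 CPM with control siRNA at 24 h. Both FAT4 siRNA libraries lay below both control libraries. The ratio was 0.608 at 48 h (0.587 to 0.63) and 0.714 at 24 h (0.688 to 0.74), and TUBA1A fell by 0.60 ± 0.09 (SE) on the log2 scale, with adjusted p = 1.01e-09 in edgeR. TUBA1B, the most abundant alpha isotype here, had 1406 CPM with FAT4 siRNA and 1333 CPM with control siRNA at 48 h, and 1539.9 CPM with FAT4 siRNA and 1569 CPM with control siRNA at 24 h. Its log2 fold change was 0.02 ± 0.09 (SE), with adjusted p = 0.87 in edgeR, and the libraries of the siRNAs overlapped. TUBA1C had 333 CPM with FAT4 siRNA and 303 CPM with control siRNA at 48 h, and 413 CPM with FAT4 siRNA and 423 CPM with control siRNA at 24 h, which also overlapped (log2 fold change 0.05 ± 0.09 SE, adjusted p = 0.714 in edgeR).

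STMN1 had 891 CPM with FAT4 siRNA and 1012 CPM with control siRNA at 48 h, and 925 CPM with FAT4 siRNA and 928 CPM with control siRNA at 24 h. Both FAT4 siRNA values were below both control values, with a ratio of 0.88 at 48 h (0.862 to 0.9) and of 0.997 at 24 h (0.976 to 1.02), where the interval held 1. The comparison over both times did not pass (log2 fold change -0.09 ± 0.09 SE, adjusted p = 0.465 in edgeR). STMN3 had 109 CPM with FAT4 siRNA and 114 CPM with control siRNA at 48 h, and 142 CPM with FAT4 siRNA and 147 CPM with control siRNA at 24 h. Its ratios were 0.956 (0.898 to 1.02) and 0.96 (0.909 to 1.01) at 48 h and 24 h, both intervals held 1, and its log2 fold change was -0.06 ± 0.09 (SE), with adjusted p = 0.681 in edgeR.

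**Figure D2:**
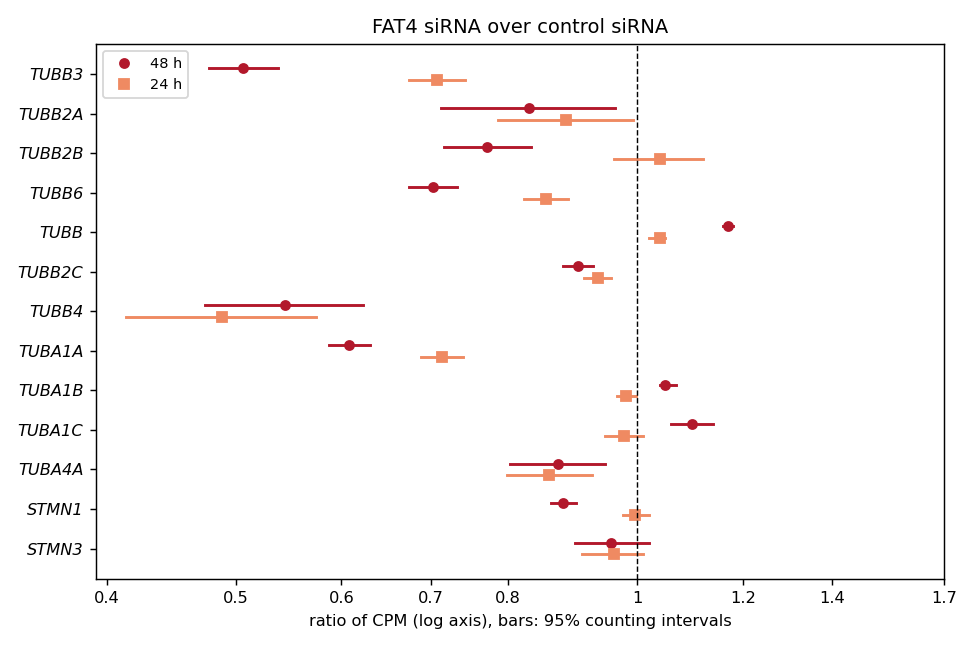
Ratio of CPM in the FAT4 siRNA library to CPM in the control siRNA library at 48 h (circles) and 24 h (squares), on a log axis with 95% counting intervals as bars, for 9 members and 4 other tubulins. TUBB3 and TUBA1A lie left of 1 at both times, at 0.506 and 0.608 (48 h) and 0.708 and 0.714 (24 h), while TUBA1B lies at 1.05 and 0.981.

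TUBB3 was then set against the other tubulins within the same library, where scaling between libraries cancels. A difference that goes with GC content, described below, does not cancel. At 48 h, TUBB3 per TUBA1A in the FAT4 siRNA library was 0.833 times that in the control library (exact conditional 95% interval 0.776 to 0.893), and at 24 h it was 0.992 times (0.933 to 1.05). At 24 h the differences of TUBB3 and TUBA1A were not told apart beyond counting error, and at 48 h that of TUBB3 was larger. Against TUBB6 the ratio of TUBB3 was 0.72 times that of the control at 48 h (0.669 to 0.775) and 0.828 times at 24 h (0.778 to 0.881). The ratio of TUBB3 to TUBB2B was 0.656 times that of the control at 48 h (0.596 to 0.722) and 0.682 times at 24 h (0.622 to 0.748), and that to TUBB2A was 0.611 times (0.52 to 0.719) and 0.8 times (0.706 to 0.908). TUBB3 was lower against the abundant isotypes too: against TUBA1B it was 0.48 times (0.451 to 0.511) at 48 h and 0.721 times (0.685 to 0.759) at 24 h, and against TUBB 0.433 times (0.407 to 0.46) and 0.683 times (0.649 to 0.718). The row listed as TUBB4, described below, went the other way at 24 h: TUBB3 per TUBB4 was 0.93 times that of the control at 48 h (0.802 to 1.08) and 1.45 times at 24 h (1.22 to 1.72). Of the 6 other tubulin members, TUBB3 was therefore lower beyond counting error against all 6 at 48 h and against 5 at 24 h, the exception being TUBA1A. These ratios were not offset for GC content. With GC and length offsets over both times, edgeR gave a log2 fold change of -0.52 for TUBB3 and -0.57 for TUBA1A. TUBB3 thus no longer fell more than TUBA1A. With those offsets TUBB6 stood at -0.22, TUBB2A at -0.08, TUBB2B at -0.06, TUBA1B at 0.06 and TUBA1C at 0.097.

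The make-up of the beta-tubulin transcripts was described next. TUBB3 held 2.21% of all beta-tubulin counts with FAT4 siRNA (exact Clopper-Pearson interval 2.1 to 2.33) and 4.55% with control siRNA (4.41 to 4.7) at 48 h. At 24 h it held 3.4% (3.27 to 3.54) with FAT4 siRNA and 4.74% (4.62 to 4.87) with control siRNA. TUBB, the main isotype, held 75.4% with FAT4 siRNA against 67.2% with control siRNA at 48 h, and 71.5% against 68.0% at 24 h. TUBB6 held 5.05% with FAT4 siRNA against 7.5% with control siRNA at 48 h, and 5.93% against 6.84% at 24 h. The summed beta-tubulin level was 4312 CPM with FAT4 siRNA and 4135 CPM with control siRNA at 48 h, and 4740.2 CPM with FAT4 siRNA and 4806 CPM with control siRNA at 24 h. The summed level with FAT4 siRNA was the higher of the pair at 48 h and the lower at 24 h, while the share of TUBB3 was lower at both times. On the alpha side, TUBA1A held 14.4% of counts (14.0 to 14.7) with FAT4 siRNA and 22.5% (22.1 to 22.9) with control siRNA at 48 h. At 24 h its share was 12.4% (12.1 to 12.8) with FAT4 siRNA and 16.2% (15.9 to 16.5) with control siRNA. TUBA1B held 66.7% with FAT4 siRNA against 60.4% with control siRNA at 48 h and 66.3% against 63.1% at 24 h.

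**Figure D3:**
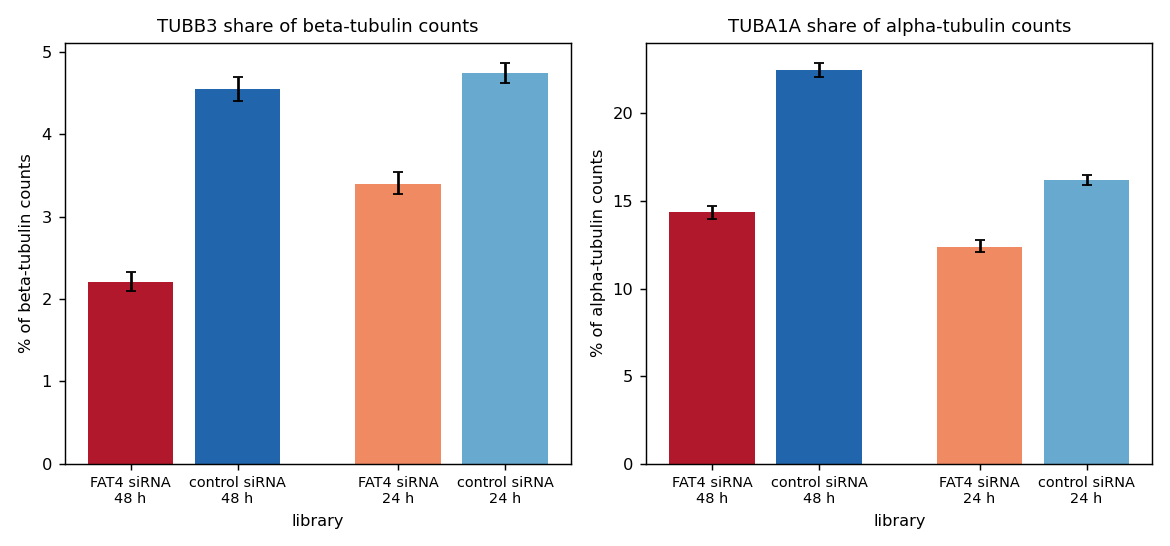
Share of beta-tubulin counts held by TUBB3 (left) and of alpha-tubulin counts held by TUBA1A (right), in percent, in each of the 4 libraries, with exact 95% counting intervals as error bars. The FAT4 siRNA bar is lower than its control bar at both times, at 2.21% against 4.55% (48 h) and 3.4% against 4.74% (24 h) for TUBB3.

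Base composition moved with the siRNA comparison. Over 13094 genes with a transcript length and GC content, the log2 ratio of FAT4 siRNA to control siRNA had a Spearman correlation with transcript GC content of -0.213 at 48 h and -0.528 at 24 h, a description across genes that share the same libraries. TUBB3 had a GC content of 62.6%, TUBB6 59.5% and TUBA1A 51.8%, beside 63.1% for STMN3, 59.3% for TUBB2A and 52.4% for TUBA1B. With offsets for GC content and length, edgeR gave a log2 fold change of -0.52 for TUBB3 (adjusted p = 3.27e-07), -0.57 for TUBA1A (adjusted p = 6.43e-10) and -0.22 for TUBB6 (adjusted p = 0.0277). All 3 thus remained called lower.

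The start regions of the genes that fell, and of TUBA1B, which did not pass, are given because TUBB3, TUBA1A and TUBB6 were lower together. They are 250 bases before a RefSeq start (GRCh38.p14), with CCAAT on either strand (CCAAT or ATTGG) in capitals, and RefSeq lists a further start for TUBB3 and for TUBB6. Promoter windows were examined for 9 of the 10 genes, and STMN2 was left out.
TUBB3, chr16:89923092-89923341, plus strand: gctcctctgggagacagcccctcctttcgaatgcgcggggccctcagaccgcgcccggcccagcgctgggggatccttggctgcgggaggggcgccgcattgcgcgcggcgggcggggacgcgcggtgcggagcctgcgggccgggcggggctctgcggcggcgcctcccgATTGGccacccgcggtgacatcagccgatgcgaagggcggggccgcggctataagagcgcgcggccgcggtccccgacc
TUBA1A, chr12:49189081-49189330, minus strand: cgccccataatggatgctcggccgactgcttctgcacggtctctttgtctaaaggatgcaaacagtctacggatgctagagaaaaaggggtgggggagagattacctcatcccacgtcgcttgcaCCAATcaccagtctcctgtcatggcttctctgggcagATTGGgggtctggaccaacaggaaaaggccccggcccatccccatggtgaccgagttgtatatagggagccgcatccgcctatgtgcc
TUBB6, chr18:12307991-12308240, plus strand: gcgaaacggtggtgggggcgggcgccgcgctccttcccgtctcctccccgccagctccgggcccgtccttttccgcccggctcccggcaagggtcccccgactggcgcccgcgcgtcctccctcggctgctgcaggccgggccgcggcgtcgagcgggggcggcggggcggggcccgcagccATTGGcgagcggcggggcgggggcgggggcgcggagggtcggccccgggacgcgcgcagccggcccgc
TUBA1B, chr12:49131396-49131645, minus strand: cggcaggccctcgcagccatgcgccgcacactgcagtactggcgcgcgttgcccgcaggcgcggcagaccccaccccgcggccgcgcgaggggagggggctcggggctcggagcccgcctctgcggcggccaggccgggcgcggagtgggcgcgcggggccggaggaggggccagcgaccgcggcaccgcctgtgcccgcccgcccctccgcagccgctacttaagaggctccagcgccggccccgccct
A CCAAT element occurred 1 time in this TUBB3 window, 2 times in the TUBA1A window, 1 time in this TUBB6 window and 0 times in the TUBA1B window. It occurs in 32.0% of all 35116 promoter windows of this length. TATAAA (or TTTATA) was in none of the 4 windows and is in 10.7% of all. The other RefSeq windows of TUBB3 and TUBB6 held 0 CCAAT elements. Genes that did not pass for the siRNA held it too, with 1 in the window of TUBB2B, 1 in 1 of 3 windows of STMN1 and 3 in that of TUBB4B. TUBB, which also did not pass, held 1 in 1 window and 0 in its other. Each of 3 windows of TUBA1C held 1, but 2 of these windows overlap and show the same site. The element therefore did not separate the genes that fell from the others, and the matches describe the letters only.

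Time was the second factor of the design. At 48 h against 24 h, TUBB2A, TUBB3, TUBA1C, STMN3 and TUBB6 were lower over both siRNAs. In the same edgeR fit 5 of 9 members passed as lower and 0 as higher at 48 h, against 12.8% of all genes called lower and 13.8% called higher. The choice of the members with earlier results known limits these shares too. At an unadjusted p under 0.05, 1 member, TUBA1A, was higher and 6 were lower, beside 5071 of all 13712 genes in either direction. DESeq2 called 4 members lower and 0 higher, beside 1176 of the 13712 genes in either direction. The median log2 fold change of the members was -0.223, beside 0.00896 over all genes.

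TUBB2A had 18.7 CPM at 48 h against 31.9 CPM at 24 h with FAT4 siRNA, and 22.5 against 36.0 CPM with control siRNA, and both 48 h libraries lay below both 24 h libraries. It fell by 0.72 ± 0.13 (SE) on the log2 scale, with adjusted p = 1.13e-06 in edgeR. TUBB3 was at 0.591 times its 24 h level with FAT4 siRNA (0.554 to 0.631) and at 0.826 times with control siRNA (0.792 to 0.862). It fell by 0.51 ± 0.09 (SE) on the log2 scale over both siRNAs (adjusted p = 1.42e-06 in edgeR), although its 48 h control library, at 188 CPM, lay above its 24 h FAT4 siRNA library, at 161 CPM. TUBA1C fell by 0.40 ± 0.09 (SE; adjusted p = 0.000126) and STMN3 by 0.38 ± 0.09 (SE; adjusted p = 0.000718) on the log2 scale in edgeR. In both genes the 48 h libraries lay below the 24 h libraries.

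TUBB6 passed narrowly as lower at 48 h, with a log2 fold change of -0.22 ± 0.09 (SE) and adjusted p = 0.0481 in edgeR, and its libraries of the times overlapped. That call was lost with DESeq2 (adjusted p = 0.225). TUBA1A had 1.05 times its 24 h level at 48 h with FAT4 siRNA (1.01 to 1.09) and 1.23 times with control siRNA (1.2 to 1.27). Its log2 fold change for time was 0.19 ± 0.09 (SE), with adjusted p = 0.107 in edgeR. TUBB2B stood at 0.969 times its 24 h level with FAT4 siRNA (0.891 to 1.05) and at 1.3 times with control siRNA (1.22 to 1.39).

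**Figure D4:**
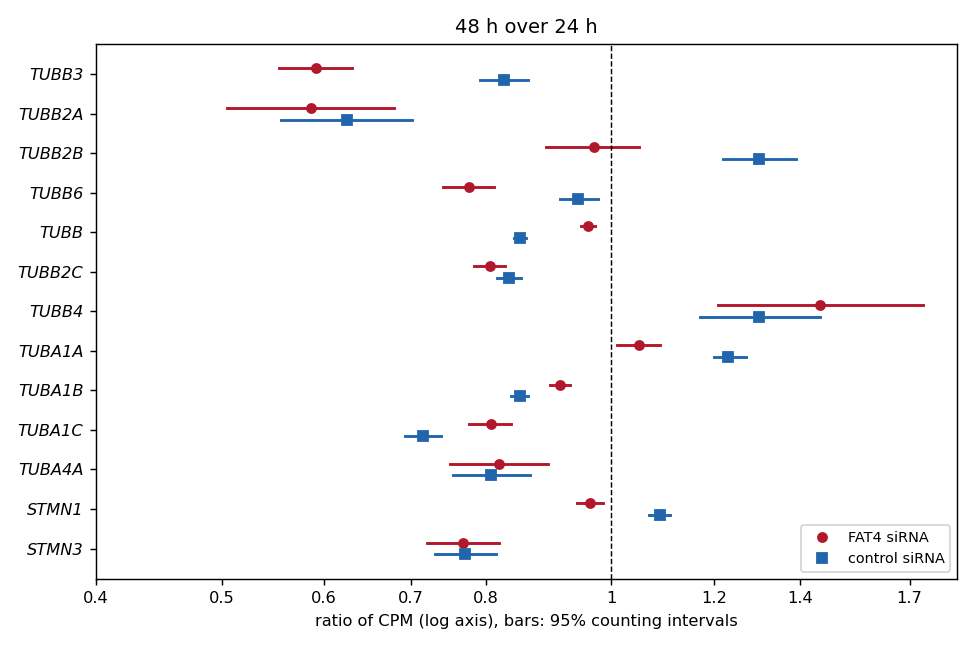
Ratio of CPM at 48 h to CPM at 24 h with FAT4 siRNA (circles) and with control siRNA (squares), on a log axis with 95% counting intervals as bars, for 9 members and 4 other tubulins. TUBB3 lies at 0.591 with FAT4 siRNA and 0.826 with control siRNA, TUBB2A at 0.586 and 0.625, and STMN3 at 0.768 and 0.771.

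The difference between the siRNAs was not equal at both times for every member. The ratio at 48 h over the ratio at 24 h was 0.744 for TUBB2B (0.668 to 0.829), 0.822 for TUBB6 (0.777 to 0.87), 0.852 for TUBA1A (0.81 to 0.897) and 0.883 for STMN1 (0.856 to 0.91). It was above 1 for TUBA1B, at 1.07 (1.05 to 1.1), and for TUBA1C, at 1.13 (1.07 to 1.18). For TUBB2A (0.775 to 1.13) and STMN3 (0.915 to 1.08) the interval held 1. TUBB3 had the lowest value of the 9, 0.716, and its interval overlapped that of TUBB2B. These intervals cover counting error between single libraries.

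The genes averaging 5 CPM or more, 10594 besides TUBB3, were ranked by the Euclidean distance of their centred log2(CPM + 1) values from those of TUBB3 over the 4 libraries. The nearest were NGFR, the p75 neurotrophin receptor, at 0.0554, CYP27C1, a retinoid desaturase, at 0.0771, PKP2, a desmosome plakophilin, at 0.0821, ISM2 at 0.0892 and LRRC4, a synaptic adhesion protein, at 0.102. NGFR had 47.8 CPM with FAT4 siRNA and 98.1 CPM with control siRNA at 48 h, and 82.6 CPM with FAT4 siRNA and 121 CPM with control siRNA at 24 h. The nearest member to TUBB3 was TUBB6, at rank 398 and a distance of 0.479, and TUBA1A was at rank 1912. The genes nearest to STMN1, whose libraries differed little, were CNTN4, a contactin (0.0178), ZCCHC14 (0.0183) and CDC42SE2 (0.022).

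The other tubulins and proteins that act on tubulin were taken from lists, each given with its counts in the siRNA comparison by edgeR. Every list count is to be read beside 11.9% of all genes tested called higher and 14.1% called lower. For the other counts, 5006 of 13712 genes had an unadjusted p under 0.05 in edgeR, and DESeq2 called 1234, in either direction. Of 9 further tubulins tested, 2 fell and 0 passed as higher (1 higher at an unadjusted p under 0.05; DESeq2 called 0 higher and 1 lower, TUBB4), with a median log2 fold change of -0.209. TUBB4, an older symbol that RefSeq lists for both TUBB4A and TUBB3, which has its own row here, had 19.5 CPM with FAT4 siRNA and 35.8 CPM with control siRNA at 48 h, and 13.5 CPM with FAT4 siRNA and 27.6 CPM with control siRNA at 24 h. It fell by 0.95 ± 0.14 (SE) on the log2 scale, with adjusted p = 2.96e-10 in edgeR. TUBD1, the centriolar delta-tubulin, fell by 0.52 on the log2 scale (adjusted p = 0.0088 in edgeR). TUBB, with 3251 CPM with FAT4 siRNA and 2779 CPM with control siRNA at 48 h, and 3387 CPM with FAT4 siRNA and 3268 CPM with control siRNA at 24 h, did not pass (adjusted p = 0.255 in edgeR).

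Of 23 genes for tubulin folding and autoregulation, 2 rose and 1 fell, beside 11.9% higher and 14.1% lower among all genes tested. The risers were TCP1 and CCT6A, subunits of the chaperonin that folds tubulin, by 0.24 (adjusted p = 0.0306) and 0.22 (adjusted p = 0.0484) on the log2 scale in edgeR. TBCB, a cofactor that captures folded alpha-tubulin, fell by 0.54 on the log2 scale, with 69.0 CPM with FAT4 siRNA and 102 CPM with control siRNA at 48 h, and 74.6 CPM with FAT4 siRNA and 107 CPM with control siRNA at 24 h (adjusted p = 1.17e-06 in edgeR). Of 15 genes of the gamma-tubulin ring complex, which nucleates microtubules, 1 rose (MZT1) and 2 fell (MZT2A and MZT2B). MZT1 had 149 CPM with either siRNA at 48 h, and 173 CPM with FAT4 siRNA against 121 CPM with control siRNA at 24 h. None of TCP1, CCT6A, MZT1, MZT2A and MZT2B was called with DESeq2 or with GC and length offsets, and with those offsets the log2 fold changes of MZT1 and MZT2B changed sign, to -0.07 and 0.04.

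Of 22 structural microtubule-associated proteins, 6 fell and 0 passed as higher (2 higher at an unadjusted p under 0.05, and 0 by DESeq2, which called 1 lower). Among all genes tested, edgeR called 14.1% lower and 11.9% higher. The named fallers were low in level: MAP7D2, which recruits kinesin, had 0.639 CPM with FAT4 siRNA and 2.63 CPM with control siRNA at 48 h, and 2.44 CPM with FAT4 siRNA and 4.52 CPM with control siRNA at 24 h. MAP6, which stabilises neuronal microtubules, had 0.192 CPM with FAT4 siRNA and 1.14 CPM with control siRNA at 48 h, and 0.135 CPM with FAT4 siRNA and 0.493 CPM with control siRNA at 24 h, at or under the floor in both FAT4 siRNA libraries. KIAA1543, an older symbol of the minus-end binder CAMSAP3, fell by 1.04 on the log2 scale (adjusted p = 0.047 in edgeR). With GC and length offsets, 5 genes of this list were called higher and 5 lower. KIAA1543 was no longer called with those offsets (adjusted p = 0.24 in edgeR), while MAP6 and MAP7D2 kept their calls.

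Of 17 microtubule plus-end tracking proteins, 4 rose and 6 fell. For this list and the severing and modifying lists below, the shares over all genes tested were 11.9% higher and 14.1% lower. SLAIN1, which promotes microtubule growth, had 372 CPM with FAT4 siRNA and 256 CPM with control siRNA at 48 h, and 564 CPM with FAT4 siRNA and 380.3 CPM with control siRNA at 24 h, and it rose by 0.56 on the log2 scale (adjusted p = 2.25e-08 in edgeR). The end-binding protein genes went different ways. MAPRE1 had 305 CPM with FAT4 siRNA and 216 CPM with control siRNA at 48 h, and 306 CPM with FAT4 siRNA and 217 CPM with control siRNA at 24 h, and rose by 0.49 ± 0.09 (SE; adjusted p = 1.11e-06 in edgeR). MAPRE3, the form enriched in brain and muscle, fell by 0.81 on the log2 scale (adjusted p = 0.000428) and MAPRE2 by 0.53 (adjusted p = 0.00225), and CLIP3 fell by 1.04 (adjusted p = 1.76e-09), all in edgeR. Of 12 severing and depolymerising proteins, 1 rose (KIF18A, a mitotic kinesin) and 3 fell, among them KATNAL1, a katanin-like severing enzyme, and SPAST, the severing enzyme spastin, by 0.54 and 0.36 on the log2 scale. Of 19 tubulin-modifying enzymes, 1 rose and 3 fell, the fallers being VASH1, a tubulin detyrosinase, and TTLL7 and TTLL12 of the tubulin tyrosine ligase-like family. With GC and length offsets edgeR no longer called VASH1 (adjusted p = 0.075) or TTLL12 (adjusted p = 0.375), while TTLL7 kept its call. TTLL7 had 26.8 CPM with FAT4 siRNA and 46.9 CPM with control siRNA at 48 h, but 40.6 and 41.6 CPM at 24 h.

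Of 18 neuronal cytoskeleton and growth cone genes, a list whose tested genes include TUBB3 and STMN3, 2 rose and 4 fell. MAPT, the neuronal protein tau, had 4.8 CPM with FAT4 siRNA and 7.26 CPM with control siRNA at 48 h, and 2.5 CPM with FAT4 siRNA and 5.87 CPM with control siRNA at 24 h, and fell by 0.87 on the log2 scale (adjusted p = 0.00147 in edgeR). NEFL fell by 0.34 on the log2 scale (adjusted p = 0.00177 in edgeR). NEFH, the heavy neurofilament chain, rose by 0.47 (adjusted p = 5.63e-05) and DPYSL3, a collapsin response mediator, rose by 0.47 (adjusted p = 0.000438) on the log2 scale in edgeR. These counts stand beside 11.9% higher and 14.1% lower among all genes tested. Of 17 targets and partners of REST, the repressor of neuronal genes outside the nervous system, which includes STMN3, 2 rose and 3 fell. SCG2 and VGF, secretory granule proteins of neurons, rose by 0.76 (adjusted p = 4.99e-12) and 0.70 (adjusted p = 0.00572) on the log2 scale in edgeR. RCOR1 and RCOR2, corepressors, and SYN1, a synaptic vesicle protein, fell by 0.38, 0.81 and 0.80 on the log2 scale. With GC and length offsets the call of SYN1 was lost (adjusted p = 0.0952 in edgeR), while RCOR1 and RCOR2 kept theirs.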

How the data were processed

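Per the labels' protocols, TRIzol-extracted RNA was used for stranded mRNA libraries (TruSeq). Tools named in the submitters' processing notes were HTSeq, TopHat2, SAMtools and CASAVA 1.8.2, with hg19 as the build and no settings. The deposited values were whole-number read counts per gene, not normalized by the authors, with 1 file per library and totals of 15196813 to 22625833. Entries that name no gene were left out, and reads outside genes were 19.5% to 20.5%. Alignments entered as not unique numbered 43.1 to 44.6 per 100 uniquely aligned reads. How many of them lay in the tubulin genes is not known. No source used here gives the read length, the annotation or the counting mode.

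Counts of genes passing filterByExpr (minimum count 10, total 15; 13712 of 23228 genes) were scaled by TMM in edgeR 4.0.16 (R 4.3.3). A quasi-likelihood fit with siRNA and time as additive terms over the 4 libraries gave two-sided p-values for each term, adjusted by Benjamini-Hochberg over all genes tested, with a threshold of 0.05. The fit was tested on simulated data. CPM is per 1000000 counts of the TMM-scaled library. Alternatives were other scalings, filters, DESeq2 1.42.0, 1 factor alone, and GC and length offsets. Of the 23228 genes, 21508 matched a GENCODE 29 transcript by symbol or synonym. Sequences came from GENCODE 29 and RefSeq.

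The members and the gene lists were chosen with earlier results of these data known. Named genes were FAT4, the members, the 3 called higher and 3 called lower of each list with the largest siRNA change (2 each way for time), and the genes nearest to TUBB3 and STMN1. MC1R, TUBB, TUBB2C, the markers and genes beside a count of 5 or fewer were named outside that rule. Not every item picked this way is reported here.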

Additional observations from a re-analysis of the deposited data

Results flagged for a closer look

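TUBA1B was 1.05 times its control level with FAT4 siRNA at 48 h (counting interval 1.04 to 1.07) and 0.981 times at 24 h (0.965 to 0.998). STMN1 at 48 h was 0.963 times its 24 h level with FAT4 siRNA (0.94 to 0.986) and 1.09 times with control siRNA (1.07 to 1.11). Both genes were picked out because the counting intervals lay on opposite sides of 1 in the pair of comparisons. With 1 library per siRNA and time, these differences were not tested against the spread between cultures.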

How the results depend on the processing

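Of 70 log2 fold changes of FAT4 and the 9 members over 7 other settings of the siRNA comparison, 65 kept their direction and their side of 0.05, 4 lost their call and 1 changed sign, STMN3, which stood at 0.17 with GC and length offsets (adjusted p = 0.118 in edgeR). For time, 59 of 70 did, 8 lost and 3 gained a call. TUBB3, TUBA1A and TUBB6 were called lower with FAT4 siRNA under every setting run other than the fit without the time term, where the members called lower numbered 0 (2 at an unadjusted p under 0.05; of all 13712 genes edgeR then called 0, with 1706 at an unadjusted p under 0.05). Without the siRNA term, members called lower at 48 h numbered 0 (3 at an unadjusted p under 0.05). Of all 13712 genes edgeR then called 50 in either direction, with 1821 at an unadjusted p under 0.05. Otherwise 4 to 6 members were lower at 48 h, where 1176 (DESeq2) to 4280 (GC and length offsets) of all genes were called in either direction. With library totals alone 1 member was higher, TUBA1A (log2 fold change 0.24, adjusted p = 0.0289 in edgeR). The time call of TUBB6 was also lost with library totals (adjusted p = 0.165) and among genes of at least 5 CPM (adjusted p = 0.0621 in edgeR). Per transcript length, and without the TUBB4 row, TUBB3 held 2.97% of beta-tubulin with FAT4 siRNA against 5.95% with control siRNA at 48 h, and 4.48% against 6.17% at 24 h. Among TUBB3, TUBB2A, TUBB2B and TUBB6 alone it held 23.6% against 30.6% at 48 h and 29.4% against 34.3% at 24 h. No paired analysis was possible because each siRNA and time was measured in 1 library, so there are no replicate numbers to pair; the time term already compares the siRNAs within each time. Leaving out 1 of the 4 libraries leaves the additive fit no residual degree of freedom, and the ratios at each time alone, given in the report, were taken in its place. Over all genes DESeq2 called 1234 for the siRNA and 1176 for time, where edgeR called 3555 and 3646. With DESeq2 the siRNA comparison called 3 lower and 2 higher plus-end tracking genes, and 1 higher and 1 lower of the REST list. It called 2 lower neuronal cytoskeleton genes, TUBB3 among them, and 2 higher, and no tubulin-modifying enzyme. The other list genes named in the report that DESeq2 also called were TUBB4, TBCB, SLAIN1, MAPRE1, CLIP3, KATNAL1, NEFH, DPYSL3, SCG2 and RCOR1. The call of KIF18A was lost under 5 of the 7 settings.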

Other observations

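Genes that act on tubulin also differed between the times, over both siRNAs in edgeR. Among all genes tested, 13.8% were called higher and 12.8% lower at 48 h. TUBE1, the centriolar epsilon-tubulin, had 40.9 and 33.3 CPM at 48 h with FAT4 and control siRNA, against 17.9 and 14.8 CPM at 24 h, a log2 fold change of 1.18 ± 0.13 (SE; adjusted p = 1.65e-16). Of 19 tubulin-modifying enzymes, 5 were higher and 1 lower at 48 h. TTLL12 fell by 0.60 on the log2 scale (adjusted p = 1.92e-09), and VASH2, a tubulin detyrosinase, with 3.39 and 2.93 CPM at 48 h with FAT4 and control siRNA against 1.42 and 1.03 CPM at 24 h, rose by 1.38 (adjusted p = 0.000382). MAP1A, a neuronal microtubule-associated protein, had 343 and 353 CPM at 48 h with FAT4 and control siRNA, against 479 and 576 CPM at 24 h, and fell by 0.60 (adjusted p = 1.28e-09). Of 23 folding and autoregulation genes, 2 rose and 5 fell at 48 h, the risers being TTC5 and SCAPER, both parts of tubulin autoregulation, by 0.33 (adjusted p = 0.0422) and 0.46 (adjusted p = 0.00442). DESeq2 called neither TTC5 nor SCAPER, and none of the modifying enzymes as higher.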
